A study of Mus musculus with 9 samples.

Results

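Mitochondrial ribosomal protein genes were described in B16F10 cells, an established mouse melanoma line, across 3 lines that differ in Sirpa, which encodes an inhibitory receptor for CD47. Members were the protein-coding genes whose symbols begin with Mrpl or Mrps followed by a digit. There were 78 of them among 51717 genes with summed counts, 49 with a large subunit symbol (Mrpl) and 29 with a small subunit symbol (Mrps). The rule left out 5 pseudogenes with such symbols. The groups were a SIRPA overexpression line, a SIRPA knockdown line and a non-targeting control line, with 3 libraries each. The labels give no other genotype, agent or time, and name neither the vectors nor the number of clones. Each condition is thus 1 line, and the p-values cover only how its own repeats vary. All 78 members passed the filter on low counts.

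The mitochondrial ribosome translates the few mRNAs of the mitochondrial genome, which encode core membrane subunits of the respiratory chain and of ATP synthase. Its rRNAs are transcribed inside the organelle, whereas its proteins are encoded in the nucleus, made in the cytosol and imported. Many of the proteins descend from bacterial ribosomal proteins, and others were added during the evolution of mitochondria. In melanoma cells, mitochondrial biogenesis is known to be driven in part by PGC-1alpha, the product of Ppargc1a, together with the factors NRF1 and GABP.

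The sequences upstream of 5 members are shown because the first 4 kept a call against the control line under every alternative setting, and Mrpl12 carries a match to the NRF1 motif. They run up to the start of the gene, hold no annotated exon, and come from RefSeq on GRCm38.p6. Mrps12 lies at chr7:28741822-28741991 on the minus strand, Mrps18a at chr17:46110754-46110985 on the plus strand and Mrpl42 at chr10:95501950-95502199 on the minus strand. Mrps6 lies at chr16:92058086-92058269 and Mrpl12 at chr11:120484387-120484612, both on the plus strand. Capitals mark a motif match.
Mrps12: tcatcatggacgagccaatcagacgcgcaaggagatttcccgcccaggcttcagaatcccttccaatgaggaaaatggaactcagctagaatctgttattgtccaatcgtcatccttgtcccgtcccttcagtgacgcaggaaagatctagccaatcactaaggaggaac
Mrps18a: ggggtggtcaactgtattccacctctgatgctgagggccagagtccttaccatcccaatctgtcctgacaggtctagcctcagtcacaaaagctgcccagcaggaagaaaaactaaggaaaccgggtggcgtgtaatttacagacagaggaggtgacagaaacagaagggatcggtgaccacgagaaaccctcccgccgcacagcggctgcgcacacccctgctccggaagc
Mrpl42: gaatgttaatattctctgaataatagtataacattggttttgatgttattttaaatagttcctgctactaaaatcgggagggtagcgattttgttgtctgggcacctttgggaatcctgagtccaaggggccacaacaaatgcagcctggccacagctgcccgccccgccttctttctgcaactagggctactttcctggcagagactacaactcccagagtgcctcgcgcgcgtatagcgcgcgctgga
Mrps6: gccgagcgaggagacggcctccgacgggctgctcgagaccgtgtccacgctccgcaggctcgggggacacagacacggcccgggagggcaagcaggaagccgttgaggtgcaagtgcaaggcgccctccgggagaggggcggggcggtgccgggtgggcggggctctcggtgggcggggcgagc
Mrpl12: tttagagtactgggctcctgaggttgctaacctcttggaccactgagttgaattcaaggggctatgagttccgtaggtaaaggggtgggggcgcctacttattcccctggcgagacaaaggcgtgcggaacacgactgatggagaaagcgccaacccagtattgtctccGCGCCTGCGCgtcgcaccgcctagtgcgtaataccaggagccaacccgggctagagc

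A set of 3 motifs was searched on both strands in the 250 bases before the start of the 69 members with a RefSeq promoter entry. For each member the entry nearest the start of its most abundant transcript was used. For the shares over other sets of genes the first entry listed per gene was used, so the choices were unlike. The NRF1 motif, a GCGC word on each side of an A and any base, was present in 10 of the 69 (14.5%), against 8.8% of 9360 tested protein-coding genes and 3.86% of 27025 genes. Of those 10 members 9 were among 43 large subunit genes and 1 was among 26 small subunit genes. The GABP motif CCGGAAGT was present in 9 members (13.0%), against 6.45% of the tested protein-coding genes and 2.93% of all genes. The E-box CACGTG, bound by Myc and MITF, was present in 5 members (7.25%), against 8.63% of the tested protein-coding genes and 6.05% of all genes. Matches of different motifs did not overlap in any member. None of these letters occurred in the windows of Mrps12, Mrps18a, Mrpl42 or Mrps6. Mrpl10 and Mrpl37, not printed here, also kept a call against the control line under every alternative setting. The window of Mrpl37 held an E-box and that of Mrpl10 held no match. The NRF1 motif was held by 3 of 16 members called lower in the knockdown line, by 1 of 7 called higher and by 6 of 46 not called.

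Depth, in units of 1000000 estimated counts, was 16.4 to 22.38 per library. Sirpa followed its labels, with 895, 898 and 914 CPM (counts scaled to a library total of 1000000) in the overexpression line and 118, 112 and 115 CPM in the knockdown line, against 292, 289 and 303 CPM in the control line. All 11 melanocyte markers were detected, and their summed level was 20045 to 20535 CPM in the overexpression line and 17441 to 18087 CPM in the knockdown line, against 18257 to 18445 CPM in the control line. Of the markers of other cell types, 7 of 13 myeloid, 10 of 12 T and NK cell and 8 of 9 epithelial genes had 0 counts. Summed fibroblast markers were 103 to 113 CPM in the overexpression line and 60.7 to 69.8 CPM in the knockdown line, against 87.7 to 97.1 CPM in the control line. The low knockdown sum came from Col1a1, at 4.95 CPM in the knockdown line on average against 55.6 CPM in the control line, whereas Postn and Col1a2 were called higher there (log2 fold changes 1.18 and 0.71). Endothelial markers summed to 294 to 312 CPM in the overexpression line and 347 to 382 CPM in the knockdown line, against 264 to 283 CPM in the control line, nearly all from Eng. The part of these markers in the results was not tested. In bulk libraries, fewer cells of a type and less RNA per cell cannot be told apart.

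The members were well expressed. Their median level over the 9 libraries was 79.2 TPM (the deposited level corrected for transcript length), with the middle of the range at 47.2 to 110.0 TPM, against a median of 18.3 TPM over all genes tested. Large subunit genes had a median of 81.3 TPM and small subunit genes of 78.2 TPM. Mrpl33 was highest at 442 TPM, followed by Mrps21 at 370 TPM, Mrpl52 at 290 TPM and Mrpl42 at 238 TPM. Mrpl33, Mrps21 and Mrpl52 encode very short proteins, and Mrpl33 and Mrps21 have bacterial counterparts. The lowest were Mrpl1, a protein of the mobile L1 stalk, at 10.4 TPM, Mrpl23 at 18.6 TPM, Mrpl35 at 24.6 TPM and Mrps30 at 26.7 TPM. These levels sum all transcripts of a gene, coding or not. Over coding transcripts alone the lowest were Mrps26 at 4.38 TPM, Mrps16 at 5.4 TPM, Mrpl32 at 6.03 TPM and Mrpl57 at 7.34 TPM. Mrpl23 shares 14.2% of its 31-base words with other genes, most of them with the pseudogene Mrpl23-ps1, and its libraries spread from 3.77 to 10.2 CPM within the knockdown line alone. Members with a bacterial counterpart had a median of 84.9 TPM and the 31 without one of 64.3 TPM, with middle ranges that overlapped.

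**Figure D1:**
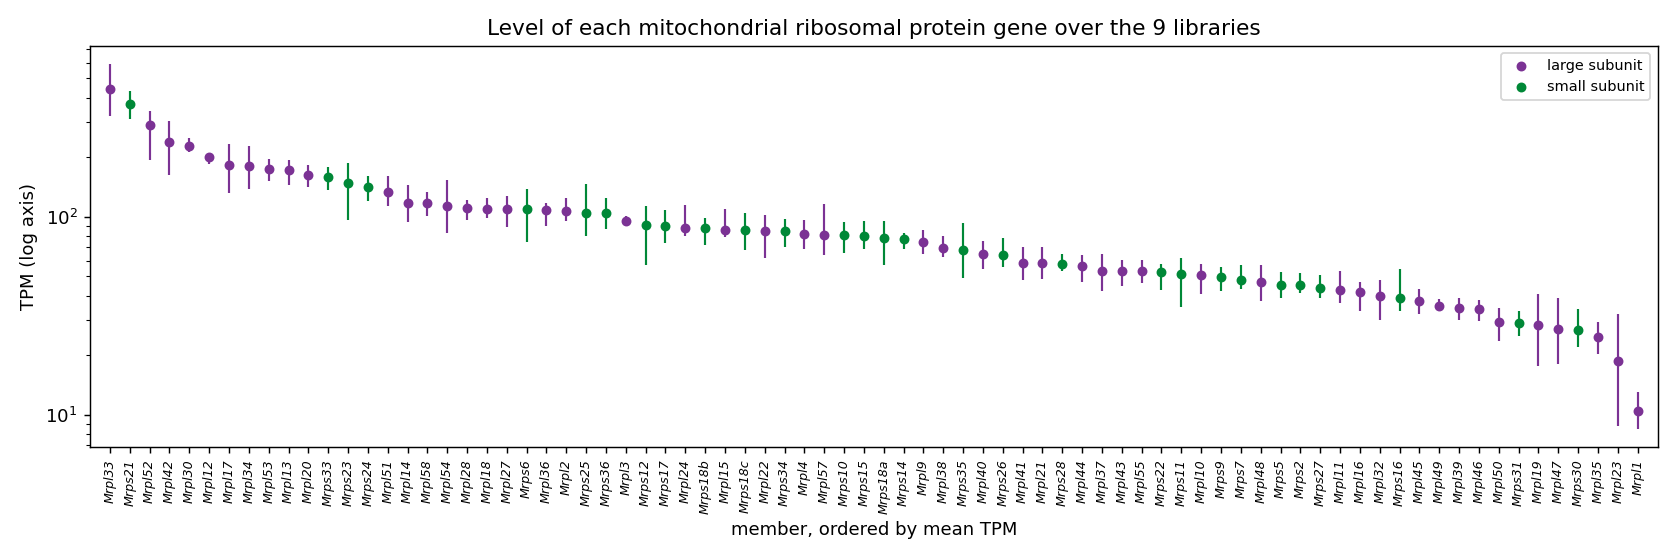
TPM of each of the 78 members on a log axis, ordered by its mean over the 9 libraries, with points for means and lines from the lowest to the highest library. Large and small subunit genes are interleaved from Mrpl33 at 442 TPM to Mrpl1 at 10.4 TPM.

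Together the members made up 0.7% to 0.774% of TPM in a library. The summed level was 7739, 7498 and 7548 TPM in the overexpression line and 7426, 7238 and 7003 TPM in the knockdown line, against 7292, 7301 and 7299 TPM in the control line. In TPM every overexpression library lay above the others, and the knockdown libraries spread to either side of the controls. The summed CPM was 3808.9, 3748.6 and 3702.4 in the overexpression line and 3579.0, 3632.4 and 3497.3 in the knockdown line. It was 3702.0, 3587.5 and 3605.7 in the control line, whose highest library nearly met the lowest overexpression library. The ratio of large to small subunit TPM was 1.94, 1.89 and 1.82 in the overexpression line and 2.03, 1.96 and 1.93 in the knockdown line, against 1.96, 1.96 and 1.95 in the control line. In CPM the same ratio was 1.88, 1.83 and 1.84 in the overexpression line and 1.89, 1.86 and 1.79 in the knockdown line, against 1.81, 1.85 and 1.83 in the control line, so that the libraries overlapped.

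The first comparison asked which members differed in the knockdown line from the control line. By edgeR's quasi-likelihood test, 9 of the 78 members were higher and 18 were lower at a Benjamini-Hochberg adjusted p under 0.05. That is 34.6% of the members, against 35.4% of the 13064 genes tested, a share near that of genes in general in this fit. By direction, 11.5% of the members were called higher and 23.1% lower, against 18.0% and 17.4% of all genes. The median log2 fold change was -0.03 over the members and -0.01 over all genes. No member reached a log2 fold change of 1 in either direction, and 5 reached 0.5. Called members moved by a median of 0.28 on the log2 scale in either direction, against 0.39 for called genes. The libraries of the lines did not overlap for 15 members above and 22 members below the control line (19.2% and 28.2%), against 22.8% and 23.0% of all genes. How the share of members called compared with that of all genes changed with the setting. It was 20.5% against 31.1% without knockdown replicate 3, and 16.7% against 21.4% with an offset for transcript length. With DESeq2 it was 32.1% against 21.0%, and without a filter 39.7% against 22.5%, both beside 21445 genes. Those 21445 include genes that the filter removes, whereas all 78 members passed it, so these 2 pairs are not like the others. DESeq2 called 4504 genes in all and the fit without a filter 4823, against 4619 in the main fit.

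Of the large subunit genes 5 were called higher and 12 lower (34.7% called), and of the small subunit genes 4 were called higher and 6 lower (34.5% called). Both shares lay near the 35.4% of all genes. Mrps30 and Mrps18a carry small subunit symbols, yet structures of mammalian mitoribosomes place both proteins in the large subunit, and Mrps36 belongs to the 2-oxoglutarate dehydrogenase complex. With those assignments 19 of 51 large and 8 of 26 small subunit genes were called. Members with a bacterial counterpart were called in 16 of 47 cases and those without one in 11 of 31.

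**Figure D2:**
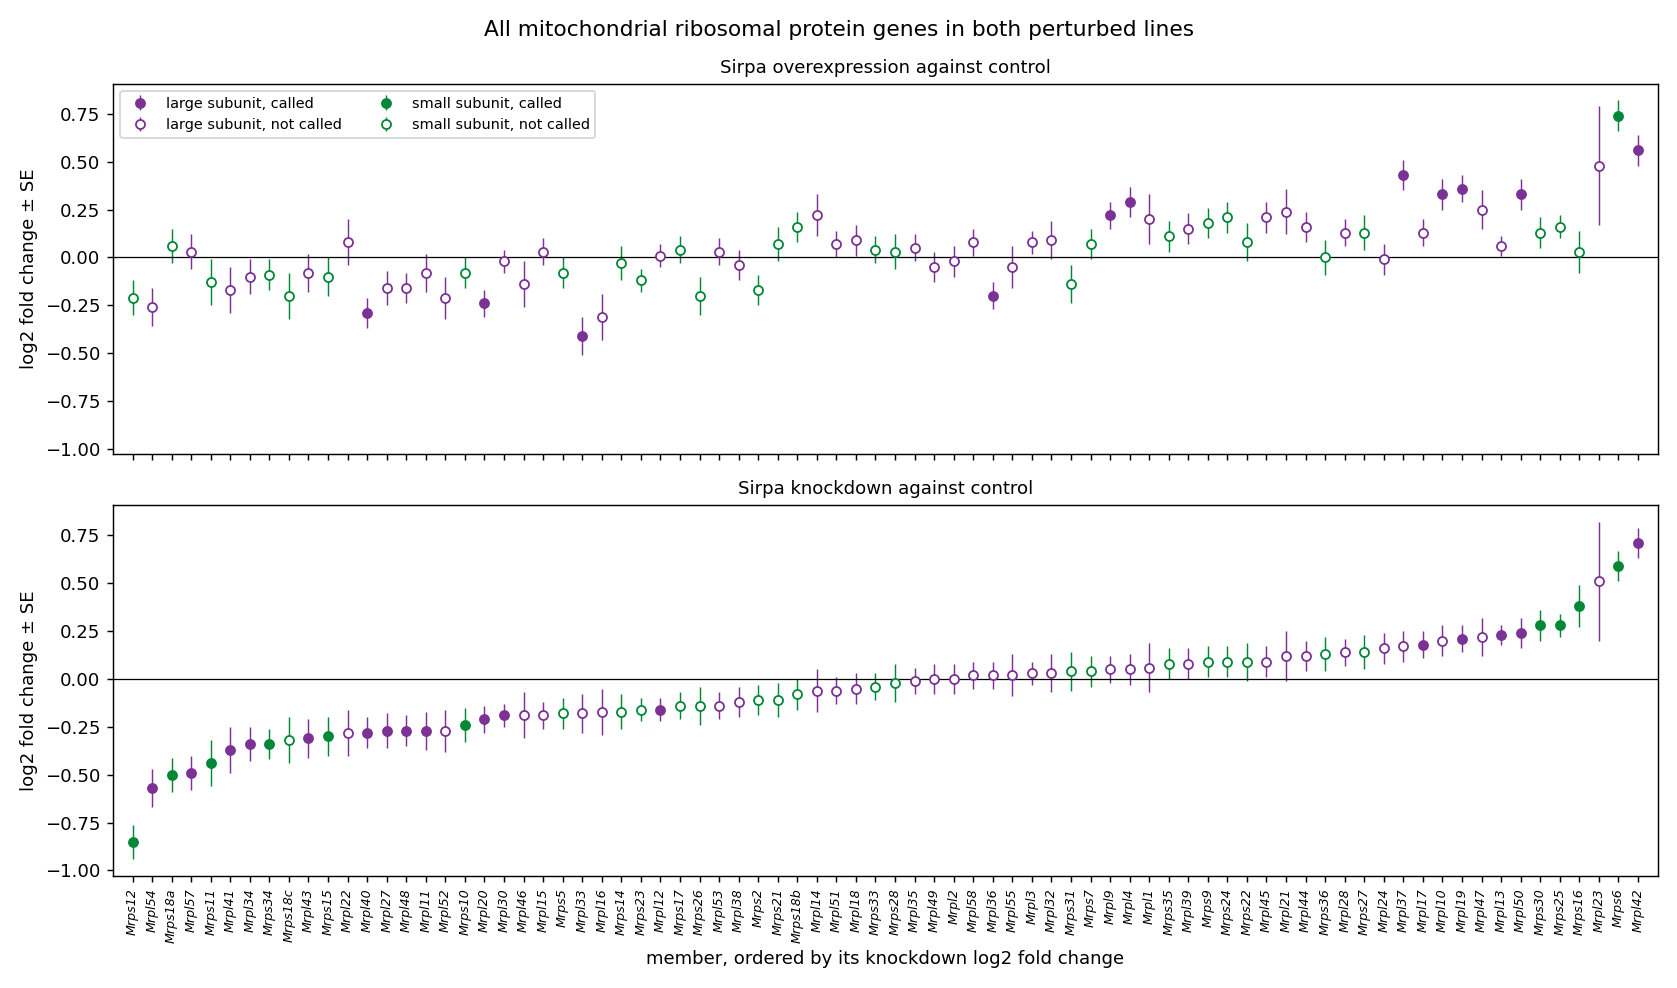
Log2 fold change ± SE of all 78 members against the control line, with the overexpression line above and the knockdown line below, ordered by the knockdown value. Filled points passed the test. Mrps12 has the lowest knockdown value at -0.85, and Mrps6 and Mrpl42 lie at the upper end in both lines.

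The largest fall was in Mrps12, the homologue of bacterial S12 at the decoding centre of the small subunit. Mrps12 had 17.5, 21.7 and 20.2 CPM in the knockdown line, against 37.5, 35.0 and 34.3 CPM in the control line. Every knockdown library lay below every control library, a log2 fold change of -0.85 ± 0.09 (SE, adjusted p = 2.25e-06), or 1.8-fold lower. The overexpression libraries, at 30.5, 31.1 and 30.5 CPM, lay between them. Mrps12 shares no 31-base word with another gene.

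Mrpl54, a large subunit protein without a bacterial counterpart, had 22.9, 21.1 and 19.9 CPM in the knockdown line, against 32.2, 35.0 and 27.9 CPM in the control line. Its log2 fold change was -0.57 ± 0.10 (adjusted p = 0.000353), and the lines did not overlap. Mrps18a, 1 of 3 mammalian relatives of bacterial S18, had 24.6, 26.4 and 26.8 CPM in the knockdown line, against 40.8, 34.9 and 34.2 CPM in the control line. All knockdown libraries were low, and the log2 fold change was -0.50 ± 0.09 (adjusted p = 0.000422). Its relatives did not pass the test. Mrps18b had a log2 fold change of -0.08 ± 0.08 (adjusted p = 0.457) and Mrps18c of -0.32 ± 0.12 (adjusted p = 0.0544), and these share 31.6% and 34.5% of their 31-base words with other genes. Mrps18c was called lower without a filter (adjusted p = 0.0425) and over coding transcripts (adjusted p = 0.0374).

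Mrpl57, another protein specific to mitochondria, had 19.4, 21.5 and 21.0 CPM in the knockdown line, against 28.4, 30.5 and 28.2 CPM in the control line. The lines did not overlap, with a log2 fold change of -0.49 ± 0.09 (adjusted p = 0.00055), which an adjustment for transcript length moved to an adjusted p of 0.0724. Mrps11, the homologue of bacterial S11 near the mRNA exit, was 17.7, 25.8 and 21.9 CPM in the knockdown line, against 26.2, 32.3 and 30.0 CPM in the control line, a log2 fold change of -0.44 ± 0.12 (adjusted p = 0.00958). Its highest knockdown library nearly met its lowest control library, and the call was lost without control replicate 2 or knockdown replicate 1 (adjusted p up to 0.0553). Mrpl41 fell by 0.37 ± 0.12 on the log2 scale (adjusted p = 0.0215). The other falls were between -0.34 and -0.16, and the smallest was in Mrpl12. Mrpl12 is the stalk protein that recruits translation factors and that also binds the mitochondrial RNA polymerase. It had 136, 149 and 124 CPM in the knockdown line, against 153, 151 and 153 CPM in the control line (adjusted p = 0.0347), and 1 knockdown library lay close to the controls.

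The largest rise was in Mrpl42, a large subunit protein without a bacterial counterpart. It had 73.9, 75.3 and 86.7 CPM in the knockdown line, against 51.7, 44.3 and 47.9 CPM in the control line. All knockdown libraries were high, with a log2 fold change of 0.71 ± 0.08 (adjusted p = 2.24e-06), or 1.64-fold higher. Nearly all of its TPM (96.9%) lay in the coding transcript Mrpl42-203. Mrps6, the homologue of bacterial S6 on the platform of the small subunit, had 48.2, 42.6 and 52.4 CPM in the knockdown line, against 31.6, 30.9 and 32.6 CPM in the control line. The lines did not overlap, and the log2 fold change was 0.59 ± 0.08 (adjusted p = 2.79e-05).

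Smaller rises were called in Mrps16 (log2 fold change 0.38 ± 0.11, adjusted p = 0.0134), Mrps25 (0.28 ± 0.06, adjusted p = 0.00238), Mrps30 (0.28 ± 0.08, adjusted p = 0.0131) and Mrpl50 (0.24 ± 0.08, adjusted p = 0.032). Mrps16 encodes the small subunit homologue of bacterial S16. Mrps25 shares 68.9% of its 31-base words with Nr2c2 on the opposite strand, and the libraries do not mark strand, so its reads and those of Nr2c2 cannot be told apart over that stretch. Mrpl13, the homologue of bacterial L13, had 115, 119 and 114 CPM in the knockdown line, against 102, 92.4 and 103 CPM in the control line. All of its knockdown libraries were high by a small margin, a log2 fold change of 0.23 ± 0.05 (adjusted p = 0.00355).

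**Figure D3:**
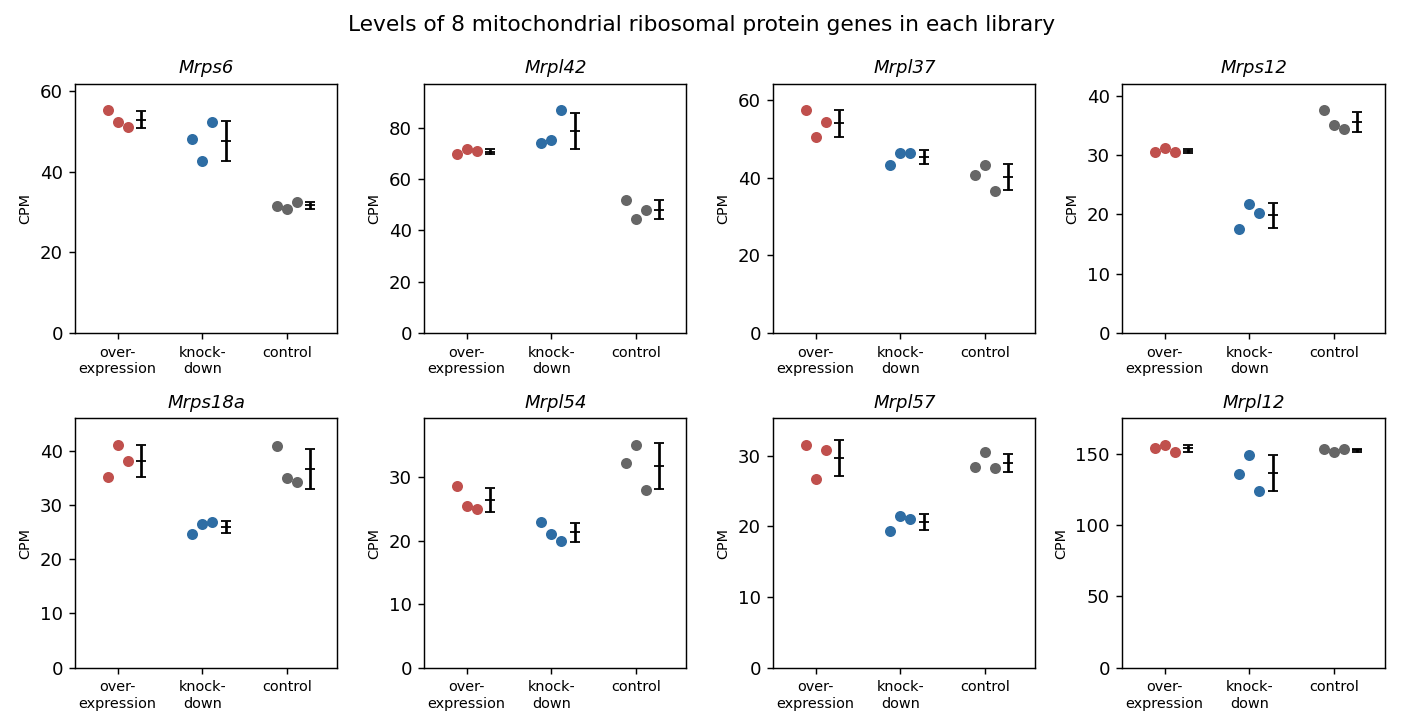
CPM of 8 members in each library (points) with the mean ± SD of 3 libraries (bars) for the overexpression, knockdown and control lines, on axes that start at 0. Mrps6 and Mrpl42 are higher in both perturbed lines, Mrpl37 in the overexpression line, and Mrps12, Mrps18a, Mrpl54 and Mrpl57 are lowest in the knockdown line.

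The second comparison set the overexpression line against the control line. Here 8 members were called higher and 4 lower by edgeR's quasi-likelihood test, 15.4% of the members against 24.3% of all genes tested. Called higher were 10.3% of the members and 13.1% of all genes, and called lower were 5.13% and 11.1%. The median log2 fold change was 0.04 over the members and 0.00 over all genes, and 2 members reached 0.5. Libraries did not overlap for 17 members above and 7 below the control line (21.8% and 8.97%), against 20.7% and 19.7% of all genes. Of 49 large subunit genes 7 were called higher and 4 lower (22.4% called), and of 29 small subunit genes 1 higher and 0 lower (3.45% called). The large subunit share lay near the 24.3% of all genes, and the small subunit share lay below it. Whether the subunits differ was not tested, and with a fit to these 2 lines alone the small subunit count was 3.

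The small subunit call was Mrps6. It had 55.3, 52.5 and 51.1 CPM in the overexpression line, against 31.6, 30.9 and 32.6 CPM in the control line. Every overexpression library was high, a log2 fold change of 0.74 ± 0.08 (adjusted p = 4.84e-06). Mrpl42 had 69.6, 71.5 and 70.7 CPM in the overexpression line, against the 51.7, 44.3 and 47.9 CPM of the control line, a log2 fold change of 0.56 ± 0.08 (adjusted p = 5.52e-05). These lines did not overlap either.

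Mrpl37, a protein specific to mitochondria, had 57.4, 50.5 and 54.3 CPM in the overexpression line, against 40.7, 43.2 and 36.7 CPM in the control line. Its log2 fold change was 0.43 ± 0.08 (adjusted p = 0.000718), and all overexpression libraries were high. Mrpl10, the homologue of bacterial L10 that anchors the Mrpl12 stalk, had 58.6, 58.9 and 56.1 CPM in the overexpression line, against 42.3, 50.3 and 44.9 CPM in the control line (0.33 ± 0.08, adjusted p = 0.0051). Mrpl12 itself had 154, 156 and 151 CPM in the overexpression line, which overlapped the control line (0.01 ± 0.06, adjusted p = 0.918). Mrpl19 and Mrpl50 were higher by 0.36 ± 0.07 (adjusted p = 0.000673) and 0.33 ± 0.08 (adjusted p = 0.00769), and the remaining rises were in Mrpl4 and Mrpl9, at 0.29 and 0.22. Mrpl19 shares 35.8% of its 31-base words with Gcfc2 on the opposite strand. With an offset for transcript length its log2 fold change was 0.20 in the overexpression line (adjusted p = 0.713) and 0.09 in the knockdown line (adjusted p = 0.863).

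Of the 4 falls the largest was in Mrpl33, the member with the highest TPM. It had 61.6, 56.2 and 51.9 CPM in the overexpression line, against 75.0, 73.8 and 76.1 CPM in the control line. The lines did not overlap, and the log2 fold change was -0.41 ± 0.10 (adjusted p = 0.00863). Mrpl40 fell by 0.29 ± 0.08 (adjusted p = 0.0175), Mrpl20 by 0.24 ± 0.07 (adjusted p = 0.0205) and Mrpl36 by 0.20 ± 0.07 (adjusted p = 0.0401). The Mrpl36 call held in 3 of 8 alternative settings and in 4 of 9 fits without 1 library, with adjusted p from 0.0384 to 0.166.

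Between the perturbed lines, 11 members were called higher and 3 lower in the overexpression line than in the knockdown line by edgeR's quasi-likelihood test, 17.9% of the members against 22.1% of all genes. Called higher were 14.1% of the members and 11.0% of all genes, and called lower were 3.85% and 11.1%. The median log2 difference was 0.09 over the members and 0.00 over all genes, and 55 of the 78 lay above 0. Libraries did not overlap for 19 members above and 6 below the knockdown line (24.4% and 7.69%), against 17.9% and 18.0% of all genes. The large subunit had 7 higher and 2 lower (18.4% called), and the small subunit 4 higher and 1 lower (17.2% called).

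The widest difference was again in Mrps12 (0.64 ± 0.09, adjusted p = 0.000101), followed by Mrps18a (0.55 ± 0.09, adjusted p = 0.000326) and Mrpl57 (0.53 ± 0.09, adjusted p = 0.000601). Mrps18a had 35.2, 41.0 and 38.1 CPM in the overexpression line, against 24.6, 26.4 and 26.8 CPM in the knockdown line. Mrpl57 had 31.5, 26.7 and 30.8 CPM in the overexpression line, against 19.4, 21.5 and 21.0 CPM in the knockdown line. All overexpression libraries of both genes were the higher ones. Mrps12, Mrps18a, Mrpl57, Mrpl54, Mrps34 and Mrpl12 were called both lower in the knockdown line than in the control line and higher in the overexpression line than in the knockdown line, and these comparisons share the knockdown libraries. The share of all genes with both of these calls was not counted. Leaving out 1 library ended the Mrpl12 difference between the perturbed lines in 8 of 9 fits and its knockdown call in 6 of 9. The differences of Mrpl54 and Mrps34 between the perturbed lines were lost with DESeq2, with the length offset and in 6 and 4 of 9 such fits. Mrps34 shares 73.8% of its 31-base words with other genes, most of them with Mapk8ip3 on the opposite strand, so reads of this pair cannot be told apart there. Mrpl22, at the exit of the nascent chain tunnel, differed by 0.37 ± 0.12 (adjusted p = 0.0386), although its libraries overlapped, at 29.8, 25.1 and 28.7 CPM in the overexpression line against 20.1, 25.7 and 19.2 CPM in the knockdown line. The 3 lower members were Mrps16 (-0.35 ± 0.11, adjusted p = 0.0324), Mrpl36 (-0.22 ± 0.07, adjusted p = 0.0271) and Mrpl13 (-0.16 ± 0.05, adjusted p = 0.0394). The length offset ended all 3 calls (adjusted p = 0.0716 for Mrps16, 0.0701 for Mrpl36 and 0.206 for Mrpl13).

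**Figure D4:**
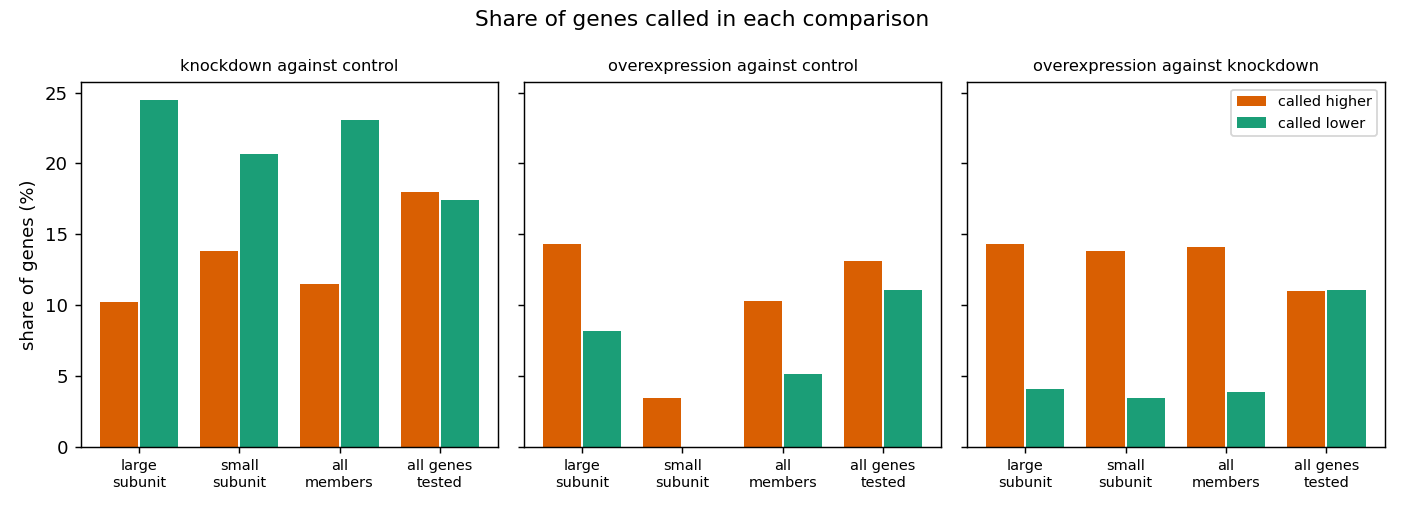
Share of genes (%) called higher and lower in each comparison, for large subunit genes (n = 49), small subunit genes (n = 29), all 78 members and all 13064 genes tested. Members called lower are 23.1% for knockdown against control, beside 17.4% of all genes, and 5.13% for overexpression against control, beside 11.1% of all genes.

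The comparisons of both lines with the control line share the control libraries, and their values for the same members are given side by side. In both, 6 members were called, all in the same direction, and 45 were called in neither. The shares of all genes called in both, in neither or in no comparison were not counted. The counts of members here thus do not set them apart from genes in general. The log2 fold changes of the 6 in the overexpression line were 0.56 for Mrpl42, 0.74 for Mrps6, 0.36 for Mrpl19, 0.33 for Mrpl50, -0.29 for Mrpl40 and -0.24 for Mrpl20. Those in the knockdown line were 0.71 for Mrpl42, 0.59 for Mrps6, 0.21 for Mrpl19, 0.24 for Mrpl50, -0.28 for Mrpl40 and -0.21 for Mrpl20. None of the 6 passed the test between the perturbed lines, with differences from -0.15 (Mrpl42, SE 0.07, adjusted p = 0.158) to 0.15 (Mrps6, SE 0.08, adjusted p = 0.192). In no comparison at all were 42 of the 78 members called. Among these, Mrpl58, a peptidyl-tRNA hydrolase that rescues stalled mitoribosomes, had 45.7, 45.4 and 44.9 CPM in the overexpression line and 45.0, 42.2 and 43.2 CPM in the knockdown line, against 47.3, 42.0 and 39.8 CPM in the control line. Mrps36 was likewise not called, with log2 fold changes of 0.00 ± 0.09 in the overexpression line (adjusted p = 0.979) and 0.13 ± 0.09 in the knockdown line (adjusted p = 0.292).

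Fold changes of the members against the control line went with transcript length. Spearman's rho over the 78 members was 0.33 in the overexpression line and 0.41 in the knockdown line, against 0.01 and 0.13 over all 13064 genes in the same comparisons. Both comparisons share the control libraries. Between the perturbed lines rho was -0.17 over the members and -0.15 over all genes. Genes are not independent replicates and share the libraries, so these are descriptions. Members called lower in the knockdown line had a median length of 903 bases, against 1143 bases for those called higher and 1166 bases for those not called. Mrpl42 and Mrps6, at 665 and 846 bases, were short members that rose. When each gene's average transcript length in each library entered the fit as an offset, 4 members were called higher and 0 lower in the overexpression line, and 4 higher and 9 lower in the knockdown line. Several calls were lost at a log2 fold change of like size, among them Mrpl33 (-0.45 with the offset, -0.41 without), Mrpl20 (-0.26 and -0.24) and Mrpl50 (0.33 in both fits) in the overexpression line, and Mrpl41 (-0.40 and -0.37) in the knockdown line. The offset fit also had a wider spread between libraries, a biological coefficient of variation of 0.165 against 0.0966. That fit called 12.1% of all genes in the overexpression line and 21.4% in the knockdown line, and the part of length in the results was not tested.

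**Figure D5:**
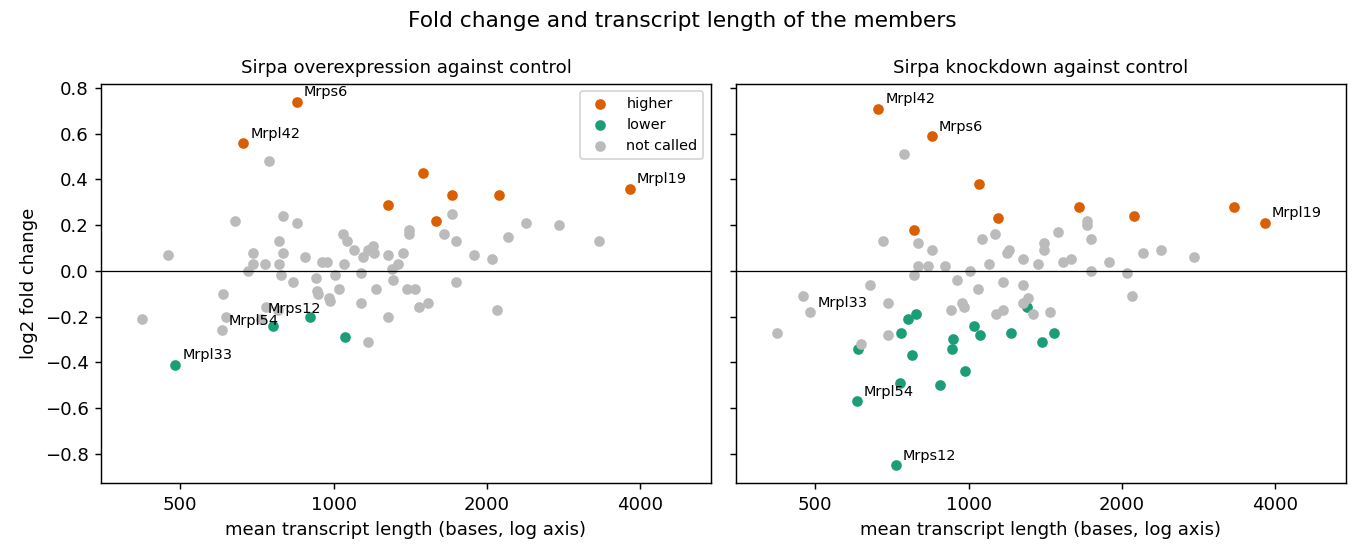
Log2 fold change of the members against their mean transcript length in bases (log axis), for the overexpression line at left and the knockdown line at right, coloured by call. Spearman's rho is 0.33 at left and 0.41 at right, and Mrpl42 and Mrps6 stand above the other short members.

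Transcript makeup differed among the members. In 65 of the 78 the most abundant transcript was protein coding, and in 13 less than 50% of TPM lay in coding transcripts. Mrpl57 held 9.03% of its TPM in coding transcripts and the rest in a retained intron form, and Mrps16 held 14.0%. The tests used counts, of which coding transcripts held more. For Mrpl57 that share was 49.2% in the overexpression line and 49.2% in the knockdown line, against 57.3% in the control line. For Mrps16 it was 42.9%, 40.9% and 42.5% in the same order. Counted over coding transcripts alone, the Mrps16 rise in the knockdown line had a log2 fold change of 0.31 (adjusted p = 0.253), and the Mrpl57 difference between the perturbed lines was 0.51 (adjusted p = 0.06). Over all members, coding transcripts held 90.4% of counts in the overexpression line and 90.1% in the knockdown line, against 90.8% in the control line.

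Many members start back to back with another gene. A divergent gene began within 1000 bases of 33 of the 78 (42.3%), against 17.1% of 11837 tested protein-coding genes. Among the 14 members with such a partner that were called in the knockdown line, the partner had the same call in 3 and the opposite call in 1. It had none in 9, and in 1 it was not tested. Of all genes 18.0% were called higher and 17.4% lower there. For 6 members called in the overexpression line these counts were 0, 1, 4 and 1, beside 13.1% and 11.1% of all genes. For 8 called between the perturbed lines they were 1, 0, 7 and 0, beside 11.0% and 11.1%. Mrps11 and Mrpl46 are each other's partner. The partner of Mrps12 is Sars2, the mitochondrial seryl-tRNA synthetase. Sars2 had 16.1, 16.1 and 21.4 CPM in the overexpression line and 14.2, 18.9 and 15.5 CPM in the knockdown line, against 17.4, 17.1 and 16.4 CPM in the control line. The lines overlapped (knockdown log2 fold change -0.07 ± 0.14, adjusted p = 0.745). The 170 bases printed for Mrps12 span the stretch between its first exon and that of Sars2. Apba3, the partner of Mrpl54, was lower in the knockdown line with it (-0.43 ± 0.08, adjusted p = 0.000611), and Mtbp and Hira shared the calls of Mrpl13 and Mrpl40. Rab6a, a Golgi GTPase beside Mrpl48, was higher (0.20 ± 0.05, adjusted p = 0.00487) where Mrpl48 was lower (-0.27). Ndufs6, a complex I subunit beside Mrpl36, was higher in the overexpression line (0.34 ± 0.08, adjusted p = 0.00391) where Mrpl36 was lower.

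Mrps6 shares its locus with Slc5a3, a myo-inositol transporter on the same strand, and 18.4% of its 31-base words with the predicted gene Gm49711. Slc5a3 had 35.7, 40.5 and 35.4 CPM in the overexpression line and 48.1, 42.4 and 38.4 CPM in the knockdown line, against 30.5, 31.2 and 31.6 CPM in the control line. It was higher by 0.26 ± 0.09 in the overexpression line (adjusted p = 0.0474) and by 0.47 ± 0.09 in the knockdown line (adjusted p = 0.000623), with no overlap with the control line. The coding transcript Mrps6-201 held 99.6% of the TPM of Mrps6.

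Genes that work with the members were counted from lists. Of 5 mitoribosomal proteins without an Mrp symbol, 2 were called higher and 0 lower in the overexpression line, and 1 and 2 in the knockdown line. That is 40.0% in the overexpression line (24.3% of all genes) and 60.0% in the knockdown line (35.4% of all genes), of a list of 5 genes. The median log2 fold change was 0.10 in the overexpression line and -0.05 in the knockdown line, against 0.00 and -0.01 over all genes in the same comparisons. Ptcd3, a pentatricopeptide protein of the small subunit, was higher in both, at 0.31 ± 0.06 (adjusted p = 0.00194) in the overexpression line and 0.27 ± 0.06 (adjusted p = 0.00321) in the knockdown line. Gadd45gip1 and Chchd1 were lower in the knockdown line, at -0.26 and -0.27. Of 15 mitochondrial translation factors, 2 were higher and 0 lower in the overexpression line, and 2 and 1 in the knockdown line. The share called was below that of all genes in both lines, and the median log2 fold change was 0.12 in the overexpression line and -0.03 in the knockdown line. Gfm1, the elongation factor that moves the ribosome along the mRNA, had 120, 125 and 132 CPM in the overexpression line and 112, 112 and 112 CPM in the knockdown line, against 92.0, 93.7 and 92.6 CPM in the control line. All libraries of both lines were high, by 0.44 ± 0.05 in the overexpression line (adjusted p = 7.84e-06) and 0.27 ± 0.05 in the knockdown line (adjusted p = 0.000512).

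Of 27 assembly and rRNA modification factors, 2 were higher and 0 lower in the overexpression line, and 1 and 3 in the knockdown line. The share called was 7.41% in the overexpression line and 14.8% in the knockdown line, again below that of all genes. The median log2 fold change was 0.05 in the overexpression line and -0.11 in the knockdown line. Between the perturbed lines 6 of the 27 were higher and 0 lower in the overexpression line (22.2% called). Of all genes 11.0% were called higher and 11.1% lower there. Mrm1, a methyltransferase of the large rRNA, and Nsun4, which methylates the small rRNA and acts in joining the subunits, were lower in the knockdown line, at -0.83 ± 0.18 (adjusted p = 0.00172) and -0.59 ± 0.14 (adjusted p = 0.00314). Mterf3 was higher in both lines, at 0.29 in the overexpression line and 0.49 in the knockdown line. Of 15 mitochondrially encoded rRNAs and mRNAs, 6 were higher in the overexpression line and 7 in the knockdown line, and 0 were lower in either. That is 40.0% in the overexpression line, where 13.1% of all genes were called higher, and 46.7% in the knockdown line, where 18.0% were. The median log2 fold change was 0.14 in the overexpression line and 0.18 in the knockdown line. The small rRNA mt-Rnr1 had 132, 128 and 134 CPM in the overexpression line and 116, 125 and 118 CPM in the knockdown line, against 86.3, 93.1 and 107 CPM in the control line. It was higher by 0.45 ± 0.07 in the overexpression line (adjusted p = 0.000119) and by 0.32 ± 0.07 in the knockdown line (adjusted p = 0.00133). The large rRNA mt-Rnr2 was not called, at 0.04 ± 0.05 in the overexpression line (adjusted p = 0.669) and 0.01 ± 0.05 in the knockdown line (adjusted p = 0.912). Libraries made from mRNA capture mitochondrial rRNAs only in part.

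Among 11 regulators of mitochondrial biogenesis, 2 were higher and 2 lower in the overexpression line, and 2 and 4 in the knockdown line. That is 36.4% in the overexpression line, beside 24.3% of all genes, and 54.5% in the knockdown line, beside 35.4% of all genes. The median log2 fold change was -0.08 in the overexpression line and -0.07 in the knockdown line. Ppargc1a had 56.9, 58.7 and 54.9 CPM in the overexpression line and 46.1, 44.2 and 47.6 CPM in the knockdown line, against 38.1, 31.1 and 34.6 CPM in the control line. It was higher by 0.72 ± 0.08 in the overexpression line (adjusted p = 5.33e-06) and by 0.41 ± 0.08 in the knockdown line (adjusted p = 0.000674). Myc had 35.9, 40.0 and 32.4 CPM in the overexpression line and 28.2, 29.3 and 29.5 CPM in the knockdown line, against 54.2, 42.0 and 48.7 CPM in the control line. It was lower in both lines, at -0.42 ± 0.10 in the overexpression line (adjusted p = 0.00429) and -0.74 ± 0.10 in the knockdown line (adjusted p = 2.11e-05). Nrf1 was lower in the knockdown line (-0.23 ± 0.08, adjusted p = 0.0369), and Gabpa was not called, at -0.08 ± 0.06 in the overexpression line (adjusted p = 0.41) and -0.07 ± 0.06 in the knockdown line (adjusted p = 0.405). Whether these regulators bear on the members was not tested.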

How the data were processed

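Per the labels' protocols, RNA of B16F10 cells went into mRNA libraries that do not keep strand, read from both ends. The authors deposited 1 table per library with an estimated count (NumReads) and a TPM per transcript, per the file headers. The submitters' processing notes name Salmon 1.4.0, MultiQC 1.11, DESeq2 1.34.0 and mm39, and the annotation is not given in the sources used here. Transcripts were matched to genes with GENCODE M21 (137161 of 140789, 97.42%), and unmatched ones held 0.554% to 0.654% of counts and were left out. Deposited estimated counts were summed per gene and rounded. Genes were tested with edgeR 4.0.16 in R 4.3.3 (filterByExpr, TMM, quasi-likelihood fit with line as its single term over the 9 libraries), with Benjamini-Hochberg adjustment over 13064 genes. The fit was tested on simulated data. CPM uses TMM library sizes. SE was derived from the F statistic. Repeats of a line differed beyond sampling noise (chi-square per degree of freedom 4.84 to 11.48). Named members were the largest called changes in each comparison, those called in both lines, the highest and lowest TPM, and members with a role of interest. The members and lists were chosen with earlier results of these data known. Alternatives were another scaling, DESeq2 1.42.0, other filters, a length offset, coding transcripts only, 2 lines only, a replicate block and leaving out each library. Genome positions are those of GRCm38.p6 and differ from mm39.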

Additional observations from a re-analysis of the deposited data

How the results depend on the processing

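No alternative reversed the direction of a called change in a named member. Changes near 0 that were not called can differ in sign between fits. Of the members called, 7 of 27 in the knockdown line (Mrpl13, Mrpl42, Mrpl54, Mrps12, Mrps18a, Mrps34, Mrps6), 4 of 12 in the overexpression line (Mrpl10, Mrpl37, Mrpl42, Mrps6) and 2 of 14 between the perturbed lines (Mrps12, Mrps18a) kept their call under every alternative run. With the length offset, calls against control were 4 higher and 0 lower in the overexpression line (3 large subunit) and 4 higher and 9 lower in the knockdown line (6 large subunit), and between the perturbed lines 4 higher and 0 lower (1 large and 3 small subunit). Of all genes that fit called 12.1% in the overexpression line, 21.4% in the knockdown line and 10.9% between the perturbed lines. That fit had a wider common spread, a biological coefficient of variation of 0.165 against 0.0966. The small subunit count in the overexpression line was 2 without a filter and 3 with 2 lines only, and the large subunit count between the perturbed lines was 5 over coding transcripts. The cause of these last 3 values was not tested.

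Leaving out each library gave 6 to 9 members higher and 8 to 18 lower in the knockdown line (7 to 17 large and 7 to 10 small subunit). It gave 6 to 9 higher and 1 to 5 lower in the overexpression line (6 to 12 large and 1 to 2 small subunit), and 4 to 12 higher and 0 to 4 lower between the perturbed lines (2 to 9 large and 2 to 5 small subunit). The lowest knockdown count, 8 lower, was without knockdown replicate 3, and it was 11 without control replicate 1 or 3. The large subunit count in the knockdown line was 10, 11 and 9 without control replicates 1, 2 and 3 and 7 without knockdown replicate 3. In the overexpression line 1 member was lower without overexpression replicate 2, and 2 were lower without overexpression replicate 3 or control replicate 1. Between the perturbed lines 4 members were higher without overexpression replicate 1 or knockdown replicate 1, 5 without overexpression replicate 3, and 6 without overexpression replicate 2 or knockdown replicate 3. Of the lower members there, 0 were left without overexpression replicate 3 or knockdown replicate 1, and 1 without overexpression replicate 1 or 2 or knockdown replicate 2. The large subunit count in the overexpression line was 6 without overexpression replicate 2 and 7 without control replicate 1, and its small subunit count was 2 without knockdown replicate 1 or 3 or control replicate 2. Between the perturbed lines the large subunit count was 3 without any 1 overexpression replicate, 2 without knockdown replicate 1, and 5 without knockdown replicate 3 or control replicate 1, and the small subunit count was 2 without overexpression replicate 1 or 3 or knockdown replicate 1. The median log2 fold change of members ranged from -0.05 to 0.00 in the knockdown line, 0.01 to 0.04 in the overexpression line and 0.06 to 0.10 between them. In these fits the share called was 20.5% to 33.3% of members in the knockdown line, against 29.1% to 34.2% of all genes. It was 8.97% to 17.9% in the overexpression line, against 18.3% to 24.7% of all genes. Between the perturbed lines it was 5.13% to 16.7%, against 16.8% to 21.4% of all genes. Without a library fewer samples enter the fit.

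Replicate numbers did not pair the libraries, since correlations of same-numbered deviations ran from -0.24 to 0.202. With a replicate block, 8 members were higher and 3 lower in the overexpression line, 9 and 19 in the knockdown line, and 11 and 2 between the perturbed lines. That is 14.1%, 35.9% and 16.7% of the members in the same order, against 22.6%, 33.9% and 20.8% of all genes. The block ended the calls of Mrpl36 in the overexpression line (adjusted p = 0.0547) and of Mrpl13 between the perturbed lines (adjusted p = 0.056), and Mrps18c passed in the knockdown line (adjusted p = 0.0256). Of the members named as lowest in TPM, Mrpl23 had an SE of 0.31 in the knockdown line. The SE there was 0.13 for Mrpl1, 0.07 for Mrpl35 and 0.08 for Mrps30. The part of depth in these values was not tested.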
